A study of Drosophila melanogaster with 9 samples.

Results

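The vacuolar proton pump (V-ATPase) is encoded in Drosophila melanogaster by a family of genes whose symbols begin with Vha. All genes of the deposited table whose symbol begins with Vha were taken, which gave 33 of 14409 genes. A further family gene, listed in the table only as CG31030 (current symbol VhaAC45RP), falls outside this rule and was not used. The pump hydrolyses ATP in a cytosolic part, V1, and drives protons through a membrane part, V0, into lysosomes, endosomes, the Golgi and secretory vesicles. V1 holds subunits A to H and V0 holds subunits a, c, c'', d and e. In secretory and endocrine cells the pump acidifies granules, and on the lysosome it is linked to degradation and to the sensing of amino acids by the TOR kinase. In insects the same enzyme also sits in the plasma membrane of Malpighian tubule and midgut cells, where it energises ion transport. In the midgut of the tobacco hornworm V1 is known to leave V0 during moulting and starvation.

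RNA was sequenced from ring glands of w1118 larvae, the small endocrine organ that makes ecdysone, juvenile hormone and adipokinetic hormone. The 9 libraries form 3 groups of 3: feeding larvae, and larvae whose starvation fell ahead of (pre-NRC) or behind (post-NRC) a nutrient restriction checkpoint, NRC, of larval growth. Each library was a pool of about 1200 dissected glands, and the pools of a treatment are described as biological replicates, so p-values measure the spread between pools. The column names of the feeding libraries carry a time of 108 h with no stated start, and the sources used here give no age, sex or length of starvation for the starved groups, so larval age and starvation cannot be told apart.

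Total counts ranged from 29123939 to 36131089 per library. The 8 ring gland marker genes, 6 ecdysone synthesis genes with Akh and jhamt, were all detected, and their summed level was 28194 to 39084 CPM (counts scaled to library size, as counts-per-million) in feeding libraries, 16692 to 21950 CPM under pre-NRC starvation and 22891 to 32152 CPM under post-NRC starvation. These sums join opposite changes: in pre-NRC starvation against feeding all 6 ecdysone genes were called lower (phm from a mean of 11852 to 3595 CPM, sad from 10573 to 1384 CPM) and Akh was called higher (from 2684 to 12346 CPM). Replicates 1 and 2 of feeding were the most alike of the 9 within-group pairs, with 108 of 7072 well-counted genes over 2-fold apart, yet their counts differed by more than sampling noise and they were kept as separate samples. Replicate 3 stood apart in every group, with 738 to 1310 such genes against replicates 1 and 2. The summed level of the Malpighian tubule list (5 of 5 markers found) was 1.07 to 1.87 CPM in feeding, with Oatp58Db at 0, 7.03 to 138 CPM in pre-NRC and 2.28 to 4.49 CPM in post-NRC libraries. The 138 CPM belonged to pre-NRC replicate 3, and the other pre-NRC libraries had 9.98 and 7.03 CPM.

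Of the 33 genes, 23 passed the filter on low counts and were tested, and 18 of these had a mean count of at least 500. These 18 genes, also above 500 counts in every library, cover every subunit from A to H, a, c, c'', d and e and the accessory proteins VhaAC45 and VhaM8.9. The lowest mean count among them was 775.4 and the highest among the other genes was 128.2. The 10 untested genes (Vha14-2, Vha16-2, Vha16-3, Vha16-4, Vha16-5, Vha36-2, Vha100-3, VhaAC39-2, VhaM9.7-d and VhaPPA1-2) had at most 34 counts in any library. Each of these 10 is a second or further copy of a subunit whose main copy was well counted.

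Levels per length were read from the deposited FPKM values, which divide by gene length and depth, as means over all 9 libraries. Vha13, the G subunit of the peripheral stalk, led at 343 FPKM, followed by Vha16-1, the proteolipid that forms the proton-carrying ring, at 177 FPKM. VhaPPA1-1, the related c'' proteolipid, VhaM8.9, the fly prorenin receptor homologue (current symbol ATP6AP2), and Vha14-1, the F subunit of the central rotor, stood at 142, 140 and 132 FPKM. The catalytic A subunit was present mainly as Vha68-2 at 73.9 FPKM and the B subunit as Vha55 at 52.1 FPKM. Vha44 (C), Vha100-2 and Vha100-1 (both a) lay lower, at 38.1, 38.3 and 43.7 FPKM. Neighbours in this order were not separate: in feeding, Vha14-1 ranged from 111 to 227 FPKM, a range that holds all feeding values of VhaPPA1-1 and VhaM8.9. The FPKM per CPM of a gene varied 1.25-fold to 1.27-fold across libraries for 14 of the 18 genes, but 1.94-fold for VhaM9.7-b, 1.56-fold for Vha100-1, 1.52-fold for Vha44 and 1.37-fold for VhaSFD, so changes between groups are given in CPM.

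**Figure D1:**
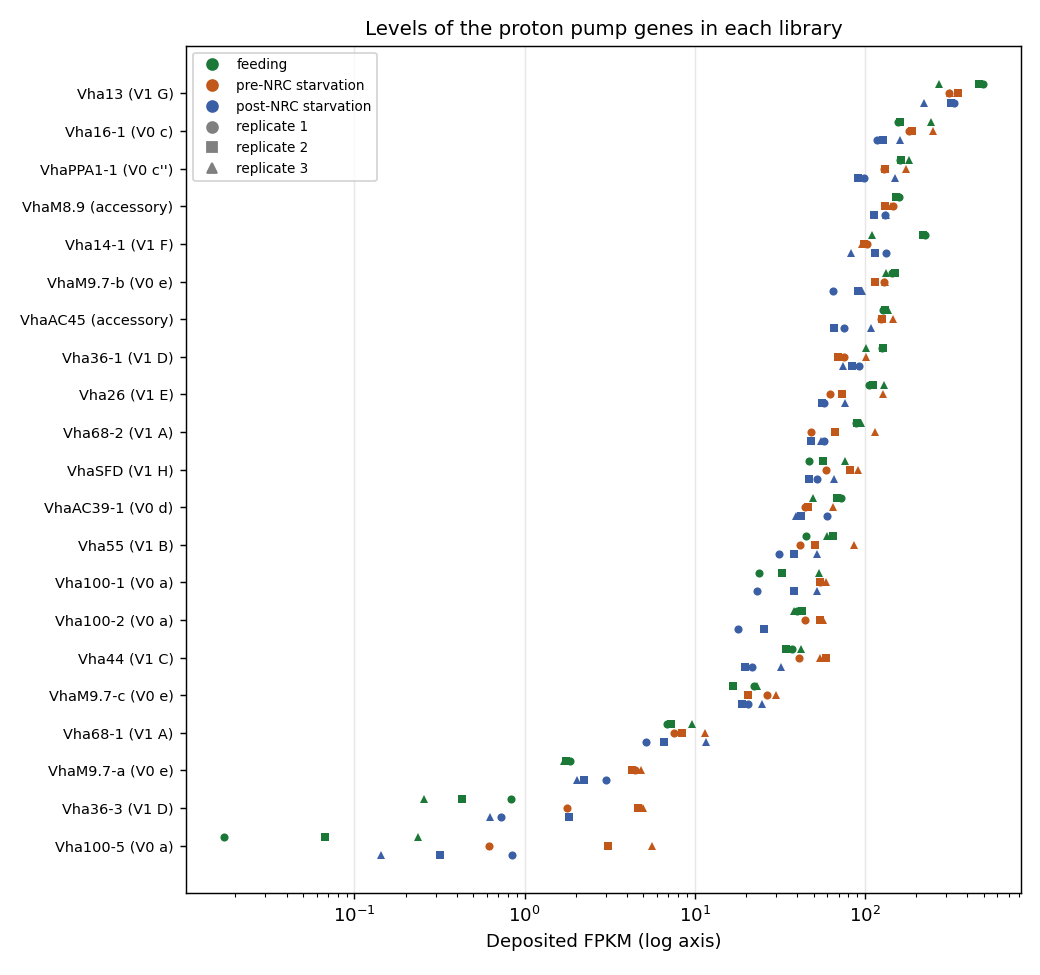
Deposited FPKM of the 21 proton pump genes with the highest mean FPKM, one row per gene, on a log axis; colours mark the groups and symbols the replicates. Vha13 stands at the top and the copies Vha36-3 and Vha100-5 at the bottom, with their pre-NRC libraries to the right of the feeding ones.

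Most subunits with several gene copies were carried by 1 copy in these glands. Of the FPKM of subunit c, Vha16-1 made up 99.9% ± 0.0708 (SD, n = 3) in feeding. Vha68-2 held 92.0% ± 1.08 of subunit A in feeding, 88.6% ± 2.25 in pre-NRC and 87.3% ± 4.73 in post-NRC libraries (SD, n = 3 each), and the remainder was nearly all Vha68-1. Subunit a, which forms the proton half-channels and differs between compartments, was shared. Vha100-2 held 53.5% ± 10.8, 46.4% ± 1.90 and 38.3% ± 5.17 of its FPKM in feeding, pre-NRC and post-NRC libraries, and Vha100-1 held 46.4% ± 10.7, 50.6% ± 3.44 and 60.7% ± 5.91 (SD, n = 3 each). Feeding replicate 3 had the highest share of Vha100-1 of its group, and feeding and pre-NRC libraries overlapped in both shares. The FPKM per CPM of Vha100-1 varied 1.56-fold across libraries, so these shares can differ between libraries without a like difference in counts. The count ratios of the pair are given below.

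The summed level of all 33 genes showed the broad pattern. It was 3875, 3943 and 3935 CPM in feeding replicates 1 to 3, 3826, 3686 and 4207 CPM in pre-NRC starvation and 2872, 2877 and 2903 CPM in post-NRC starvation. All post-NRC libraries lay below all others, and feeding and pre-NRC libraries overlapped. In these bulk samples, fewer cells of a type and less RNA per cell cannot be told apart. The summed muscle markers (5 of 5 found, none at 0) were also lowest in post-NRC libraries, at 1473 to 3047 CPM against 3970 to 4320 CPM in feeding libraries and 5017 to 7586 CPM under pre-NRC starvation, and their part in the result was not tested.

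**Figure D2:**
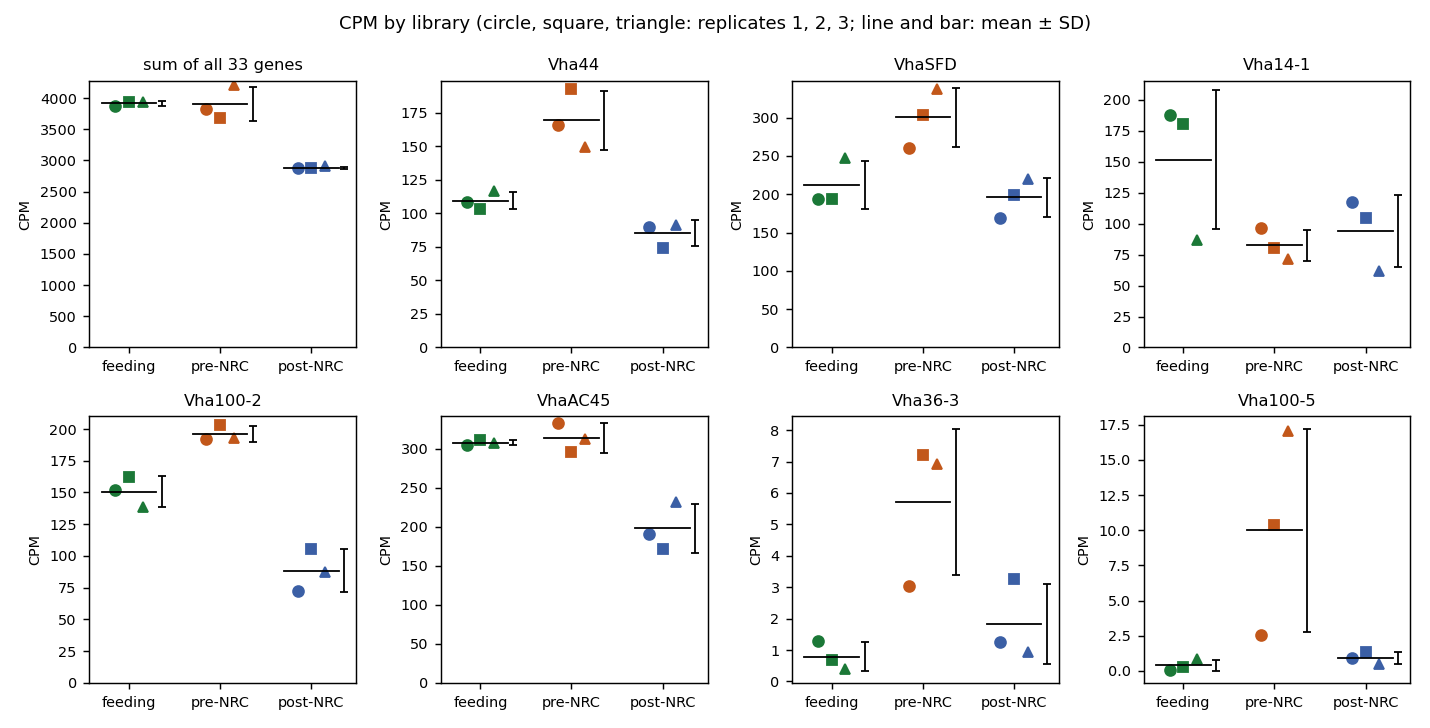
CPM in each library for the sum of all 33 genes and for 7 named genes; points are libraries, lines are group means and bars are ± SD (n = 3). The sum is lowest in the post-NRC libraries, Vha44 and Vha100-2 are highest in the pre-NRC libraries, and Vha36-3 and Vha100-5 sit near 0 in feeding.

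In pre-NRC starvation against feeding the pump genes moved in different directions. Vha44, Vha36-3 and Vha100-5 rose, and no pump gene fell in edgeR's quasi-likelihood test with Benjamini-Hochberg adjustment. In that comparison 16.1% of the 10883 genes tested were called higher and 11.5% lower, so 3 of 23 tested pump genes is near the background. At an unadjusted p under 0.05, 6 tested pump genes were higher and 2 lower, against 23.0% and 18.3% of all genes. The 6 include Vha100-4, which passed the filter on low counts only through its pre-NRC libraries, so its place there is no independent result. Among the 18 well-counted genes 2 were higher and 2 lower. Neither DESeq2 nor limma on FPKM called any pump gene lower. The median log2 change of the 18 well-counted genes was -0.04, against 0.00 over all genes tested, and 9 of the 18 had negative changes, against 49.9% of all genes. The groups did not overlap in 4 of the 18 with higher and 2 with lower values, against 25.3% and 23.1% of all genes. By part, the median was -0.27 for the 9 genes of V1, 0.18 for the 7 genes of V0 and -0.04 for the 2 accessory genes.

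Vha44 encodes subunit C, which joins the stalks of V1 to V0 and in yeast and tobacco hornworm is released when the pump comes apart. Its level was 108, 104 and 117 CPM in feeding and 166, 193 and 149 CPM in pre-NRC starvation. The groups did not overlap, and the log2 change was 0.63 with a standard error (SE) of 0.18 and an adjusted p of 0.0298 in edgeR. In post-NRC starvation Vha44 was at 90.0, 74.4 and 91.5 CPM, below every feeding library, with a log2 change against feeding of -0.36, SE 0.18 and adjusted p = 0.391. The rise in pre-NRC starvation lost its call without feeding replicate 1 (adjusted p = 0.109), feeding replicate 2 (0.119), pre-NRC replicate 1 (0.0734) or pre-NRC replicate 2 (0.111), and with limma on FPKM (log2 change 0.41, adjusted p = 0.191). Vha44 lies on chromosome 2R at 16324813 to 16336637, minus strand (annotation BDGP6.54), and 148 of its 4023 exon bases overlap Hmgs on the other strand, an HMG-CoA synthase gene at 1032, 1031 and 1064 CPM in feeding, 1170, 1402 and 984 CPM in pre-NRC and 801, 969 and 934 CPM in post-NRC libraries. Whether counting used strand is not stated in these sources, which leaves Vha44 counts uncertain to that extent, and the part of Hmgs in the result was not tested.

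VhaSFD, the H subunit that holds V1 inactive when it is free of V0 in yeast, was at 194, 194 and 248 CPM in feeding and 260, 303 and 338 CPM in pre-NRC starvation. All pre-NRC libraries lay above all feeding libraries, but the change missed the threshold (log2 change 0.50, SE 0.20, edgeR adjusted p = 0.0902). With the replicate number as a block VhaSFD was called higher (log2 change 0.50, adjusted p = 0.0229), as 18.0% of all genes then were. In post-NRC starvation it was at 169, 199 and 220 CPM, overlapping feeding.

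The rotor and the other stalk subunits of V1 had no such higher values. Vha14-1, subunit F, was at 188, 180 and 86.8 CPM in feeding, 96.1, 80.3 and 71.2 CPM in pre-NRC and 117, 104 and 61.4 CPM in post-NRC starvation. Feeding replicate 3 was far below its companions and overlapped the starved groups. The change to pre-NRC starvation was -0.88 on the log2 scale (SE 0.34, edgeR adjusted p = 0.086). It was called lower in edgeR with the replicate block (-0.80, adjusted p = 0.0195), as were 18.8% of all genes there. It was also called lower without feeding replicate 3 (-1.17, adjusted p = 0.0265), as were 1136 of 11297 genes. Vha36-1, the main copy of rotor subunit D, was at 168, 169 and 128 CPM in feeding, 113, 90.8 and 122 CPM in pre-NRC and 131, 123 and 88.9 CPM in post-NRC starvation. Its pre-NRC libraries lay below all feeding libraries, and the change of -0.51 (SE 0.22) had an edgeR adjusted p of 0.112. Vha13, subunit G, was at 434, 411 and 227 CPM in feeding, 309, 305 and 250 CPM in pre-NRC and 313, 311 and 176 CPM in post-NRC starvation, and the groups overlapped through the low replicate 3 of feeding.

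Vha68-2 (subunit A), Vha55 (subunit B) and Vha26, the E subunit of the peripheral stalk, depended on pre-NRC replicate 3. Vha68-2 was at 278, 279 and 281 CPM in feeding and at 170, 205 and 320 CPM in pre-NRC starvation. Vha26 was at 290, 305 and 337 CPM in feeding and 198, 200 and 318 CPM in pre-NRC starvation. Vha55 was at 153, 216 and 192 CPM in feeding and 156, 168 and 259 CPM in pre-NRC starvation. In each of these genes pre-NRC replicate 3 was the highest library of its group, and it is also the library with 138 CPM of Malpighian tubule markers, whose part in the result was not tested. The pattern was not particular to these genes. Pre-NRC replicate 3 was also highest of its group in Vha16-1 (812 CPM), VhaSFD (338 CPM) and VhaPPA1-1 (264 CPM), among others, but lowest in Vha13 (250 CPM) and Vha14-1 (71.2 CPM). That library also stood apart in summed markers of fat body (1658 CPM against 5.64 and 63.5 in the other pre-NRC libraries), midgut (809 against 302 and 351) and salivary gland (64.5 against 3.86 and 10.52), and in the ecdysone synthesis gene sad (3300 CPM against 434 and 419). With all libraries the log2 changes were -0.27, -0.38 and 0.05 for Vha68-2, Vha26 and Vha55 (edgeR adjusted p = 0.44, 0.231 and 0.895). Without pre-NRC replicate 3, Vha26 was called lower in edgeR (-0.65, adjusted p = 0.0289) and so was Vha68-2 (-0.58, adjusted p = 0.0497). Vha55 then had a change of -0.21 and was not called. In that fit 1520 of all 11072 genes tested were called lower.

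In V0 none of the well-counted genes passed the test in pre-NRC starvation against feeding. Vha100-2 was at 152, 162 and 138 CPM in feeding and 193, 203 and 193 CPM in pre-NRC starvation, separate groups with a log2 change of 0.38 (SE 0.19, edgeR adjusted p = 0.154). Vha100-1, the copy best known from synaptic vesicles of fly neurons, was at 142, 154 and 222 CPM in feeding and 229, 244 and 236 CPM in pre-NRC starvation (log2 change 0.45, SE 0.26, adjusted p = 0.227). Neuron markers (5 of 5 found, none at 0) summed to 43.8 to 99.4 CPM in feeding and 106 to 121 CPM in pre-NRC starvation. Of the 5, nSyb and brp were called higher, against 16.1% of all genes. The other changes were not called, and elav had a negative one (log2 change -0.45, SE 0.97). The part of these markers in the values of Vha100-1 was not tested. Vha16-1 was at 557, 572 and 823 CPM in feeding and 738, 670 and 812 CPM in pre-NRC starvation, where feeding replicate 3 exceeded every starved library. VhaPPA1-1 was at 272, 275 and 291 CPM in feeding and 247, 218 and 264 CPM in pre-NRC starvation, all of them lower than in feeding (log2 change -0.20, SE 0.19, adjusted p = 0.446). VhaAC39-1, the d subunit that couples the rotor to the ring, was at 163, 154 and 105 CPM in feeding and 112, 102 and 131 CPM in pre-NRC starvation, with overlap. VhaM9.7-b, the main copy of the small subunit e, was at 126, 131 and 111 CPM in feeding and 132, 99.0 and 104 CPM in pre-NRC starvation.

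The accessory genes overlapped between these groups. VhaAC45, which guides assembly and transport of the pump, was at 305, 311 and 307 CPM in feeding and 333, 296 and 312 CPM in pre-NRC starvation. VhaM8.9 was at 293, 279 and 265 CPM in feeding and 303, 236 and 235 CPM in pre-NRC starvation. The log2 changes were 0.03 and -0.11, both with SE 0.18.

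The largest fitted changes with a call belonged to copies of low abundance. Vha100-5, a further copy of subunit a on chromosome 2L at 11738948 to 11744524, had 3, 9 and 27 counts in feeding, 85, 338 and 613 counts in pre-NRC and 26, 37 and 16 counts in post-NRC starvation. This corresponds to 0.0938, 0.272 and 0.827 CPM, then 2.56, 10.4 and 17.0 CPM, then 0.908, 1.32 and 0.489 CPM. The rise in pre-NRC starvation was 4.64 on the log2 scale (SE 0.97, edgeR adjusted p = 0.0113), and the pre-NRC libraries did not overlap the others. Without pre-NRC replicate 3 the change was 4.01 (adjusted p = 0.0182), and without feeding replicate 2 it lost its call (4.42, adjusted p = 0.0518). An antisense gene, asRNA:CR44144, shares 527 exon bases with Vha100-5, so reads of the pair cannot be told apart with certainty.

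Vha36-3, a further copy of rotor subunit D on the X chromosome at 2579091 to 2580560, was at 1.28, 0.695 and 0.398 CPM in feeding, 3.04, 7.21 and 6.92 CPM in pre-NRC and 1.26, 3.28 and 0.947 CPM in post-NRC starvation. The rise in pre-NRC starvation was 2.85 on the log2 scale (SE 0.69, edgeR adjusted p = 0.0186). It was called without pre-NRC replicate 3 (2.68, adjusted p = 0.0311) but not without feeding replicate 2 (2.76, adjusted p = 0.0736) or pre-NRC replicate 2 (2.65, adjusted p = 0.0603). In FPKM, Vha36-3 made up 0.414% ± 0.214 of subunit D in feeding, 4.41% ± 1.996 in pre-NRC and 1.25% ± 0.761 in post-NRC libraries (SD, n = 3 each), and Vha100-5 made up 0.124% ± 0.119, 2.65% ± 1.98 and 0.900% ± 0.981 of subunit a. In post-NRC replicate 1 Vha100-5 had 26 counts and 0.849 FPKM, and in post-NRC replicate 2 it had 37 counts and 0.319 FPKM. The post-NRC share of Vha100-5 is uncertain to that extent. The main copies thus remained Vha36-1, Vha100-1 and Vha100-2 in every group.

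Markers of some other tissues were also higher in pre-NRC than in feeding libraries, and those of others were not. Midgut markers (6 of 6 found, none at 0) summed to 11.9 to 100 CPM in feeding, 302 to 809 CPM in pre-NRC and 119 to 768 CPM in post-NRC libraries, and 4 of the 6 were called higher in pre-NRC starvation against feeding. Blood cell markers (4 of 4 found, none at 0) summed to 168 to 510, 1220 to 2271 and 403 to 725 CPM, with 2 of the 4 called higher. Of the 4 tested genes of the tubule list 3 (Uro, Irk3 and Oatp58Dc) were called higher. In that comparison 16.1% of all genes tested were called higher. Salivary gland markers (6 of 6 found, none at 0) were lower, at 245 to 1888 CPM in feeding and 3.86 to 64.5 CPM in pre-NRC libraries. Fat body markers (5 of 5 found, Yp1 at 0 in feeding) spanned 456 to 1297 CPM in feeding and 5.64 to 1658 CPM in pre-NRC libraries. The part of other tissues in the rise of Vha36-3 and Vha100-5 was not tested. The fits without pre-NRC replicate 3 given above cannot test it. The midgut and blood cell sums of every pre-NRC library, not only replicate 3, lay above those of all feeding libraries.

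The remaining low-copy genes gave few counts. VhaM9.7-a, a copy of subunit e, was at 1.65 to 1.97 CPM in feeding, 3.74 to 4.55 CPM in pre-NRC and 1.13 to 2.87 CPM in post-NRC starvation, with a log2 change to pre-NRC starvation of 1.18 (SE 0.43, edgeR adjusted p = 0.0708). Vha100-4, which neighbours Vha100-2 on chromosome 3R, had 4, 0 and 0 counts in feeding, 24, 11 and 58 counts in pre-NRC and none in post-NRC starvation. It was at least 27.2-fold higher in pre-NRC than in post-NRC starvation, taking a floor of 3 counts over the group, which covers counting error only. In edgeR this difference was not called (adjusted p = 0.0709), nor was that of pre-NRC starvation against feeding (adjusted p = 0.0782). Vha68-3, the neighbour of Vha68-2, had 3 to 22 counts in every library. VhaAC39-2 had no count in feeding and 20 counts in all over the pre-NRC libraries, and VhaPPA1-2 had counts only in post-NRC replicates 1 and 2, at 8 and 5.

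**Figure D3:**
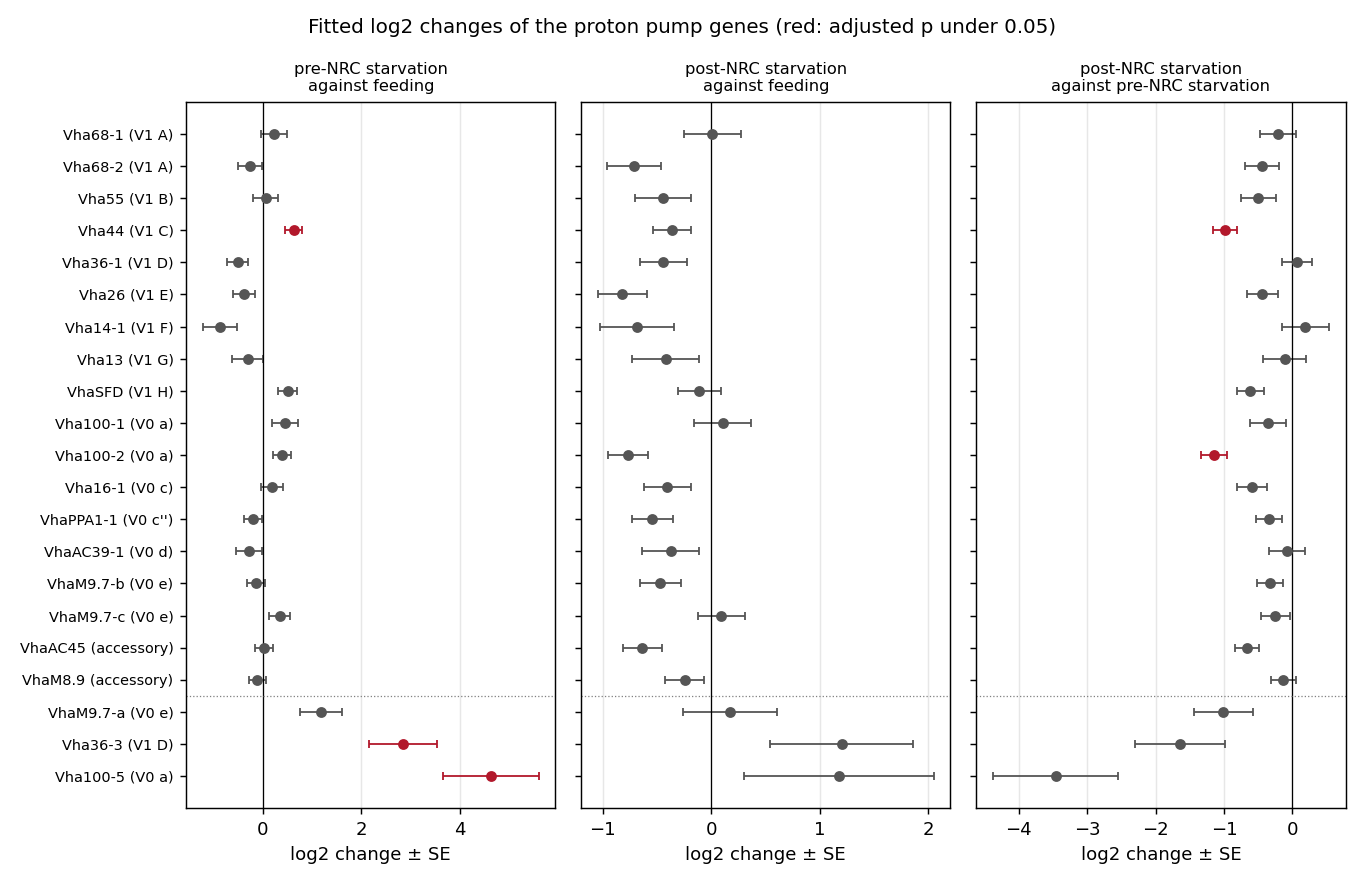
Fitted log2 changes with SE of 21 tested pump genes in the 3 comparisons, grouped by V1, V0 and accessory genes, with the low-copy genes under the dotted line and each panel on its own scale; red points have an adjusted p under 0.05 in edgeR. Changes scatter on both sides of 0 in the first panel, and 15 of the 18 well-counted genes lie below 0 in the second and 16 in the third.

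In post-NRC starvation against feeding most pump genes had lower values, but none passed the test. Of the 18 well-counted genes, 15 had a negative log2 change, against 48.6% of all genes tested, with a median of -0.43 against 0.02 over all genes. The median was -0.44 for V1, -0.40 for V0 and -0.44 for the accessory genes. edgeR called 0 pump genes in either direction, where 0.634% of all genes were called higher and 0.175% lower, and 0 with the replicate block, where these shares were 1.19% and 0.579%. At an unadjusted p under 0.05, 6 of the 18 were lower and 0 higher, against 5.12% and 9.67% of all genes. In 9 of the 18 genes every post-NRC library lay below every feeding library, against 10.3% of all genes tested. In none did every post-NRC library lie above, against 1412 of the 10883 genes tested. DESeq2 called 3 pump genes lower (Vha100-2, Vha26 and VhaAC45) and limma on FPKM 0. Over all genes DESeq2 called 167 of 11566 lower and 553 higher, where edgeR called 19 and 69 of 10883.

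Vha26 was at 167, 170 and 191 CPM in post-NRC starvation, below its 290 to 337 CPM in feeding (log2 change -0.82, SE 0.22, edgeR adjusted p = 0.14). Vha100-2 was at 72.4, 106 and 87.5 CPM, below 138 to 162 CPM in feeding (-0.77, SE 0.19, adjusted p = 0.107). VhaAC45 was at 191, 171 and 232 CPM, below 305 to 311 CPM in feeding (-0.64, SE 0.18, adjusted p = 0.149). In each of these genes the lowest feeding library exceeded the highest post-NRC library. Vha68-2 was at 192, 166 and 154 CPM (-0.71, SE 0.25, adjusted p = 0.226), and VhaPPA1-1 was at 177, 169 and 229 CPM (-0.54, SE 0.19, adjusted p = 0.217). Both were separate from feeding too, as were VhaM9.7-b at 100, 89.1 and 76.9 CPM, VhaM8.9 at 258, 229 and 220 CPM and Vha16-1 at 450, 503 and 523 CPM.

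The other well-counted genes overlapped with feeding, apart from Vha44. Vha55 was at 110, 144 and 158 CPM in post-NRC starvation and VhaAC39-1 at 143, 103 and 79.3 CPM. Vha100-1 was at 144, 160 and 253 CPM, overlapping feeding, with a log2 change of 0.10 (SE 0.26). Vha68-1 and VhaM9.7-c, the minor copies of subunits A and e, also had log2 changes of 0.01 and 0.09.

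Post-NRC against pre-NRC starvation compares the starved groups directly. Vha100-2 and Vha44 fell and no pump gene rose; 3.29% of all genes tested were called lower and 1.90% higher. Vha100-2 went from 193, 203 and 193 CPM to 72.4, 106 and 87.5 CPM, a log2 change of -1.15 (SE 0.19, edgeR adjusted p = 0.0304). Vha44 went from 166, 193 and 149 CPM to 90.0, 74.4 and 91.5 CPM, a change of -0.99 (SE 0.18, adjusted p = 0.0318). Neither gene overlapped between the groups. Both calls were lost without feeding replicate 1 (adjusted p = 0.0604 for Vha100-2 and 0.0694 for Vha44), feeding replicate 2 (0.0594 and 0.0667), pre-NRC replicate 1 (0.0849 and 0.0916), pre-NRC replicate 2 (0.1 and 0.116) or post-NRC replicate 1 (0.126 and 0.128), and Vha44 also without post-NRC replicate 2 (0.0769). Over the 9 fits that each left out 1 library, their log2 changes stayed between -1.29 and -1.02 for Vha100-2 and between -1.07 and -0.88 for Vha44, and with only the 2 groups in the fit neither was called (adjusted p = 0.0773 and 0.0845).

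Of the 18 well-counted genes 16 had a negative change from pre-NRC to post-NRC starvation, against 50.9% of all genes tested, with a median of -0.35 against -0.02 over all genes. At an unadjusted p under 0.05, 5 of the 18 were lower and 0 higher, against 14.9% and 12.1% of all genes. The exceptions were the rotor subunits Vha14-1 (0.19, SE 0.34) and Vha36-1 (0.07, SE 0.22). VhaAC45 was separate between the groups (-0.66, SE 0.18, edgeR adjusted p = 0.0631), and so were VhaSFD (-0.61, SE 0.20, adjusted p = 0.0975) and Vha16-1 (-0.59, SE 0.22, adjusted p = 0.128). Vha100-5 had a change of -3.46 (SE 0.91, adjusted p = 0.0595). The groups did not overlap in 6 of the 18 genes with lower values and in 0 with higher values, against 15.7% and 13.7% of all genes.

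The balance of Vha100-1 and Vha100-2, the main copies of subunit a, differed between libraries. The ratio of Vha100-1 to Vha100-2 counts was 0.936, 0.954 and 1.60 in feeding, 1.19, 1.20 and 1.22 in pre-NRC and 1.99, 1.51 and 2.89 in post-NRC starvation. All post-NRC ratios lay above all pre-NRC ratios, while replicate 3 had the highest ratio in every group. This pair was chosen after its values were seen, so no test is given.

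Changes were related to transcript length among the well-counted genes. Across the 18 genes, the log2 of annotated exon length and the log2 change to pre-NRC starvation had a Pearson r of 0.64 and a Spearman rho of 0.63. For post-NRC against feeding these were 0.01 and 0.05, and for post-NRC against pre-NRC starvation -0.75 and -0.78. The genes share libraries and are not independent, so these values are descriptions. Of the shortest genes, Vha14-1 at 659 bases and Vha13 at 943 bases had negative changes to pre-NRC starvation, VhaM9.7-c at 848 bases had a positive one (0.34, SE 0.22), and the longest, Vha44 at 4023 bases, rose. Replicate 3 differed from replicates 1 and 2 along the same axis, with r of 0.71 and rho of 0.60, and in feeding Vha14-1 and Vha13 differed by -1.08 and -0.90 on the log2 scale in replicate 3 against replicates 1 and 2. With each library's trend over exon length removed as an offset, Vha100-5, Vha36-3 and Vha44 were again called higher in pre-NRC starvation, VhaM9.7-a was added, Vha14-1 was called lower (-0.88, edgeR adjusted p = 0.0137), and Vha100-2 and Vha44 were again lower in post-NRC than in pre-NRC starvation.

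**Figure D4:**
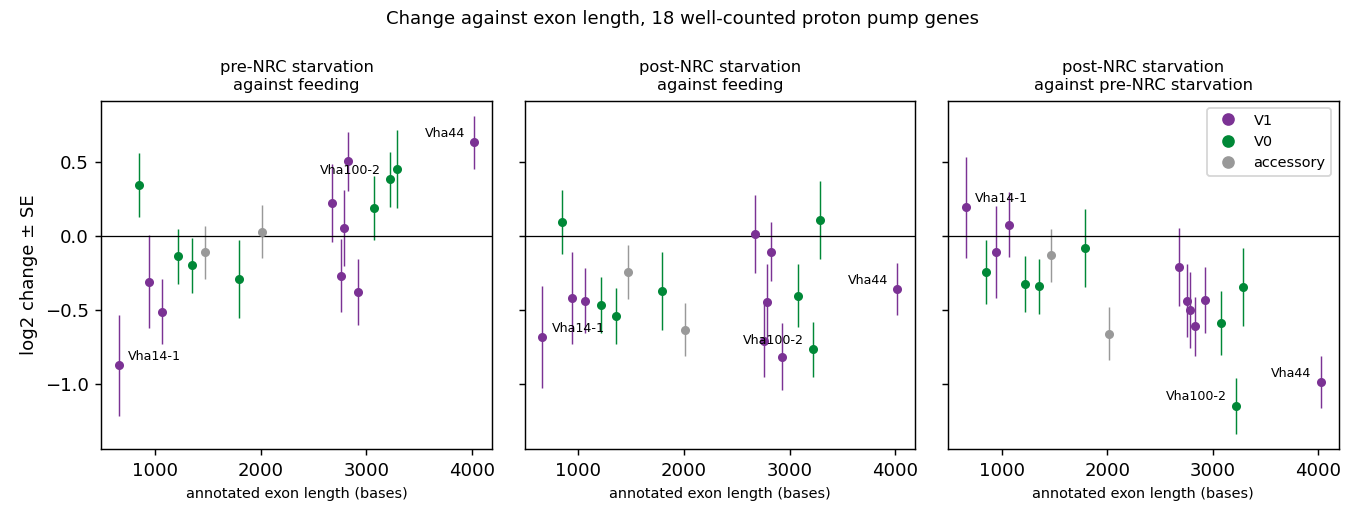
Log2 change with SE against annotated exon length in bases for the 18 well-counted pump genes in the 3 comparisons, coloured by V1, V0 and accessory genes. Long genes lie higher than short ones in pre-NRC starvation against feeding and lower in post-NRC against pre-NRC starvation, and no slope is seen in the middle panel.

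Genes around the pump were described from lists of assembly factors, lysosomal proteins, nutrient sensors, ion exchangers and the mitochondrial ATP synthase. Of the V-ATPase assembly and regulation list 4 of 6 genes were found. SkpA, a subunit shared by the yeast RAVE assembly factor and by ubiquitin ligases, fell in pre-NRC starvation from 273 ± 60.2 to 138 ± 10.4 CPM (SD, n = 3 each; log2 change -0.99, SE 0.27, edgeR adjusted p = 0.0271). Mitf, a transcription factor known to activate pump genes in flies, was at 38.7 ± 13.9 CPM in feeding and 72.6 ± 19.4 CPM in pre-NRC starvation (0.91, SE 0.31, adjusted p = 0.056). Rbcn-3A and Rbcn-3B, the fly rabconnectins, did not pass the test, though with the replicate block Rbcn-3A was called lower as well (adjusted p = 0.0497). None of the 4 was called in the other comparisons.

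Of 23 lysosomal enzymes and membrane proteins, 3 rose and 3 fell in pre-NRC starvation against feeding, with a median log2 change of -0.01. With the replicate block 5 were called higher and 6 lower. Over all genes tested 16.1% were called higher and 11.5% lower in this comparison, and 18.0% and 18.8% with the block. The genes that rose were Gba1a, a glucocerebrosidase (3.96, edgeR adjusted p = 0.00559), Hexo2, a hexosaminidase (2.19, adjusted p = 0.00959), and Cln3, a lysosomal membrane protein (5.18, adjusted p = 0.0234). Gba1a and Cln3 were at 0.173 and 0.0719 CPM in feeding. The genes that fell were the protease cathD (-0.75, adjusted p = 0.0462), the thioesterase Ppt1 (-0.88, adjusted p = 0.0285) and the hexosaminidase Hexo1 (-0.52, adjusted p = 0.0399). In post-NRC against feeding 0 of the 23 passed (1 with the block, higher), and in post-NRC against pre-NRC starvation Hexo1 rose (0.83, adjusted p = 0.0353).

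Of 18 genes of nutrient sensing at the lysosome 16 were found and tested. Of these mio, a component of the GATOR2 complex that acts upstream of TOR, rose in pre-NRC starvation from 33.1 ± 1.14 to 70.2 ± 12.1 CPM (SD, n = 3 each; log2 change 1.08, SE 0.24, edgeR adjusted p = 0.0137), and no other was called in any comparison. With the replicate block 3 of the 16 were called higher and 1 lower in pre-NRC starvation against feeding. Over all genes tested these shares were 18.0% and 18.8%, and 16.1% and 11.5% without the block. Of the 6 chloride and sodium-proton exchangers none was called, and with the block 2 were lower in that comparison. The mitochondrial ATP synthase, which runs the related rotary reaction in the other direction, differed from the vacuolar pump in its counts. Of its 14 genes 6 fell and 0 rose in pre-NRC starvation against feeding, against 11.5% and 16.1% of all genes. The calls were led by ATPsynC (-1.53), blw (-0.97) and ATPsynO (-1.42), and the median was -0.98. With the replicate block 13 fell, where 18.8% of all genes were lower. Its medians were -0.38 in post-NRC starvation against feeding and 0.61 in post-NRC against pre-NRC starvation, with 0 called in both. The difference between the ATP synthase and the vacuolar pump was not tested.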

How the data were processed

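The deposited table gives whole-number counts and FPKM values per gene and library, both made by the authors, per the file headers. The genome build BDGP6 and the tools HISAT2, Cufflinks, StringTie and Bowtie come from the submitters' processing notes, while tool versions and roles, the counter and its use of strand were not given in the sources used here. Per the labels' protocols, a directional kit and paired-end sequencing were used. The columns named as wild type at 108 h, the only ones without a starvation term, were taken as feeding.

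Counts were tested with edgeR 4.0.16 (R 4.3.3): filterByExpr (10883 genes kept), TMM scaling, a quasi-likelihood fit with a coefficient for each group over the 9 libraries, two-sided tests, Benjamini-Hochberg adjustment over all genes tested, threshold 0.05. CPM used TMM-scaled library sizes. The biological coefficient of variation was 50.6%. The fit was also run on simulated counts, with a smaller spread than in these data and no departure of replicate 3. That run therefore does not show how the fit performs at the spread seen here. Of the 33 genes, 29 were matched to annotation BDGP6.54 by identifier and 4 by symbol. Overlapping genes and near-identical copies may share reads.

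All 33 genes are described; those called, or among the 13 highest in mean FPKM, have values per library. From other lists up to 3 genes with the smallest p past the threshold are named, otherwise up to 2 of the most expressed; Rbcn-3A, Rbcn-3B and Mitf were named beyond that rule, after their values were seen. Members and lists were chosen with earlier results of these data known.

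Libraries of the same number in feeding and in either starved group departed from their group means in the same direction (correlations 0.1165 to 0.3018 and 0.1192 to 0.2966). A replicate block is therefore given beside results against feeding where it changes a call of a pump gene or a count in the lists around the pump. For the tissue markers it is not given, though it changes some of their calls. Pairs of different number among replicates 1 and 2 reached 0.1251, so the pattern is mainly replicate 3. Alternatives were RLE and upper-quartile scaling, DESeq2 1.42.0, no filter, 2 groups only, the replicate block, limma 3.58.1 on log2(FPKM + 1), each library left out, replicates 1 and 2 only and a threshold of 0.1. A length offset (lowess, span 0.3) and feeding replicates 1 and 2 summed were chosen after seeing the data. The library totals of 29123939 to 36131089 counts limit precision mainly for the low-count copies.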

Additional observations from a re-analysis of the deposited data

Results flagged for a closer look

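Vha100-2 and Vha44 differed between the starved groups in the comparison of post-NRC with pre-NRC starvation, which tests the difference of their changes from feeding. The log2 difference was -1.15 for Vha100-2 and -0.99 for Vha44, with edgeR adjusted p of 0.0304 and 0.0318, and in both genes every post-NRC library was below every pre-NRC library. The feeding libraries enter the shared estimate of the spread, and neither call held once feeding replicate 1 (adjusted p = 0.0604 and 0.0694) or feeding replicate 2 (0.0594 and 0.0667) was left out, nor with only the 2 groups in the fit (0.0773 and 0.0845) or with feeding replicates 1 and 2 summed (0.0595 and 0.0685).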

How the results depend on the processing

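No called change of a pump gene reversed under any of the 20 alternatives. The count of pump genes called higher in pre-NRC starvation against feeding (3) became 5 with replicates 1 and 2 only, 6 at a threshold of 0.1, 1 with feeding replicates 1 and 2 summed and 0 to 4 with 1 library left out. The count called lower (0) became 6 with replicates 1 and 2 only (Vha13, Vha14-1, Vha26, Vha36-1, Vha68-2 and VhaAC39-1), 1 with the replicate block, with a threshold of 0.1 or with the length offset, and 0 to 2 with 1 library left out. Among all genes, replicates 1 and 2 only gave 2256 higher and 2342 lower calls of 10849 in this comparison. All libraries gave 1750 and 1248 of 10883. A threshold of 0.1 gave 2345 and 1820 of 10883, and the length offset 1793 and 1840 of 10883. Feeding replicates 1 and 2 summed gave 810 and 453 of 11264. With 1 library left out the calls over all genes ranged from 779 to 1884 higher and from 387 to 1520 lower. Vha100-4 was among the 6 pump genes higher at 0.1. In post-NRC starvation against feeding the count called lower (0) became 3 with DESeq2, 4 with replicates 1 and 2 only and stayed at 0 with any library left out. From pre-NRC to post-NRC starvation the count called lower (2) became 6 with DESeq2, with replicates 1 and 2 only and with a threshold of 0.1, 0 with the 2 groups only or with feeding replicates 1 and 2 summed, and 0 to 3 with 1 library left out. Among all genes, 1200 of 11301 were then lower with DESeq2, 1370 of 10849 with replicates 1 and 2 only and 939 of 10883 at 0.1. The 2 groups only gave 74 of 10644 lower, feeding replicates 1 and 2 summed 45 of 11264, and 1 library left out 6 to 841. Vha100-4 was among the 6 pump genes with DESeq2 and at 0.1. With the replicate block the count of pump genes became 4, adding VhaAC45 and VhaSFD (744 of 10883 genes were lower then, 358 without the block). The same-number correlations there were 0.0998, 0.1495 and 0.3648, while post-NRC replicate 2 with pre-NRC replicate 1 reached 0.2337. These values cannot tell whether the libraries of the 2 groups are paired. Beyond the values given in the text, the block changed no other call of a pump gene. The causes were not tested. Over all genes, replicates 1 and 2 only gave 510 higher and 231 lower calls in post-NRC starvation against feeding, where all libraries gave 69 and 19. With 1 library left out, 1 to 41 of all genes were called lower in that comparison. Among uncalled gene values 37 changed sign. Copies with few counts are limited by depth. Promoter motifs were not searched.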
